A study of Homo sapiens with 6 samples.

Results

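Claudins are small membrane proteins with 4 membrane-spanning stretches that polymerise into the strands of tight junctions, the seals between neighbouring epithelial cells. Some claudins tighten this seal and others form pores for ions or water, and scaffold proteins such as the zonula occludens proteins anchor them to actin. Which claudins a cell makes differs between tissues. CLDN11 is best known from the myelin of the brain and from the Sertoli cells of the testis, whereas CLDN3, CLDN4 and CLDN7 are typical of simple epithelia, the prostate's luminal cells included.

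The genes described here are 10 claudins chosen by name, namely CLDN11, CLDN1, CLDN2, CLDN3, CLDN4, CLDN7, CLDN8, CLDN12, CLDN18 and CLDN23. They are 10 of the 23 claudin gene names on the arrays, against 19045 gene names tested in all, and every probe that the scan files assign to one of them was taken, which gave 12 probes. The genes were picked with their ratios in these same samples already known. Their ratios and levels are therefore a description. Calls of a test are counted for them further on, but nothing is read from those counts.

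The samples came from 22RV1, an established human prostate cancer cell line that the labels call SPINK1 positive. Stable lines were made with the lentiviral vectors pLemiR-338-5p, pLemiR-421 or, as control, pLemiR-RFP, which carries a red fluorescent protein, and all were kept in puromycin, which kills cells that lack a resistance gene. MicroRNAs (miRNAs) pair with messenger RNAs and reduce the protein made from them. Each array compared 2 RNAs: control RNA carried the green dye Cy3, and RNA of the miRNA line carried the red dye Cy5. No array swapped the dyes, so a probe that takes up one dye better is off by the same amount in both lines. The miR-338-5p group has replicates 1, 2 and 3, and the miR-421 group has a sample labelled Pool and replicates 1 and 2. The labels say neither what was pooled, nor what the letter C before the other numbers means, nor whether 1 control culture supplied every array. Replicates may therefore be technical, and the SDs and p-values cover only the spread between these arrays.

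The mature sequences of both miRNAs are shown because they define the 2 groups. They come from RefSeq (GRCh38.p14), miR-338-5p from chromosome 17, 81125923 to 81125944, minus strand, and miR-421 from chromosome X, 74218392 to 74218414, minus strand. Capitals mark the seed, bases 2 to 8, with which a miRNA finds its targets.
miR-338-5p: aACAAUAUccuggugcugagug
miR-421: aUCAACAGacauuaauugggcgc
The seeds differ between the miRNAs. Their complements, ATATTGT for miR-338-5p and CTGTTGA for miR-421, were searched on the messenger strand of the 60-base probes. Neither occurs in any of the 12 claudin probes (0 of 12 for both), against 0.478% and 0.558% of all 58201 probes. A probe covers a small stretch of a transcript, so this says nothing of the remainder. The letters AATAAA, the common polyadenylation signal, occur in 4 of the 12 claudin probes and in 7.85% of all probes.

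All 6 arrays lay on 1 slide. Of the gene spots, 44.3% to 47.9% were well above background in Cy3 and 41.9% to 48.3% in Cy5, where miR-421 replicate 1 had the smallest share, and 0 were saturated. Of 10 markers of prostate luminal cells, 10 were well above background in both dyes on all 6 arrays, as was SPINK1. Of 3 basal markers, 0 reached this in either dye. The cells thus carried the markers of their label. Of 6 fibroblast markers, 3 reached it in Cy3 and 1 in Cy5. Because CLDN11 is a myelin and Sertoli cell gene, markers of those cells were read too. The oligodendrocyte markers MBP, MOG and MAG were well above background in both dyes on every array. Of 3 Sertoli markers, AMH and SOX9 (2) were above background throughout, and DHH on 2 arrays in Cy3. The part of these markers in the CLDN11 result was not tested.

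CLDN11 stood far apart from the other claudins on the arrays. Its probe (NM_005602; chromosome 3, 170151824 to 170151883, plus strand, hg19) was well above background in both dyes on all 6 arrays. In control RNA its normalized log2 Cy3 level was 11.08, 11.02 and 10.98 on the miR-338-5p arrays and 10.90, 10.99 and 11.08 on the miR-421 arrays (Pool, 1, 2), a mean of 11.01 ± 0.07 (SD, n = 6). In the miRNA lines its log2 Cy5 level was 9.22, 7.72 and 6.85 for miR-338-5p replicates 1, 2 and 3, and 6.63, 7.15 and 6.84 for the miR-421 Pool, 1 and 2. The control level thus moved by 0.18 between arrays, and the miRNA line level by 2.59. On no array did a Cy5 level come near the control level.

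**Figure D1:**
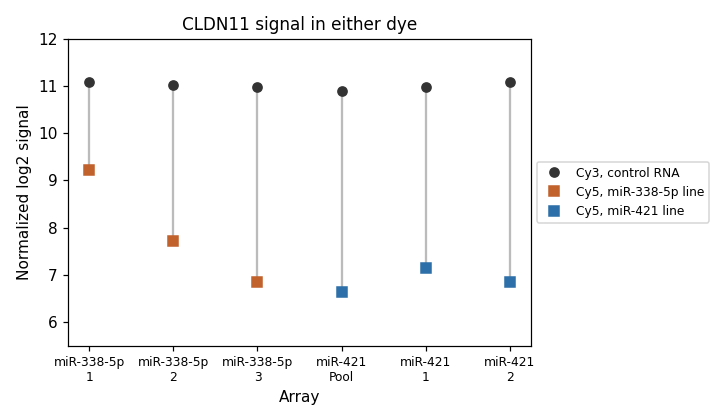
CLDN11 normalized log2 signal on each of the 6 arrays, with control RNA (Cy3) as circles, RNA of the miRNA line (Cy5) as squares, and a line joining both dyes of an array. The 6 control points lie between 10.90 and 11.08, and the 6 miRNA line points lie below them, from 9.22 on miR-338-5p replicate 1 down to 6.63 on the miR-421 Pool.

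As a ratio of miRNA line over control, the log2 values of CLDN11 were -1.86, -3.30 and -4.14 on the miR-338-5p arrays, a mean of -3.10 ± 1.15 (SD, n = 3). On the miR-421 arrays they were -4.27 (Pool), -3.84 (replicate 1) and -4.24 (replicate 2), a mean of -4.12 ± 0.24 (SD, n = 3). In percent, the Cy5 signal was 27.6%, 10.2% and 5.68% of the control signal in the miR-338-5p line, and 5.17%, 7.00% and 5.29% in the miR-421 line. The miR-338-5p arrays spread widely and replicate 3 fell inside the range of the miR-421 arrays, so the ratios of both groups overlap. Without miR-338-5p replicate 1 the miR-338-5p mean was -3.72, and without replicate 3 it was -2.58. A lower signal in a bulk sample can come from fewer cells that make the transcript or from less RNA per cell, and these cannot be told apart here. Ordered by mean ratio from the lowest, CLDN11 held place 6 of 27501 probes in the miR-338-5p line and place 4 of 27491 in the miR-421 line.

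The size of the ratio moved with the processing. The miR-421 mean log2 ratio was -5.09 with the image software's own ratio, -5.03 with background subtracted and -4.69 with no background correction. In the miR-338-5p line no processing moved the mean by as much as its SD over arrays. The ratio stayed below 0 on every array under each processing.

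**Figure D2:**
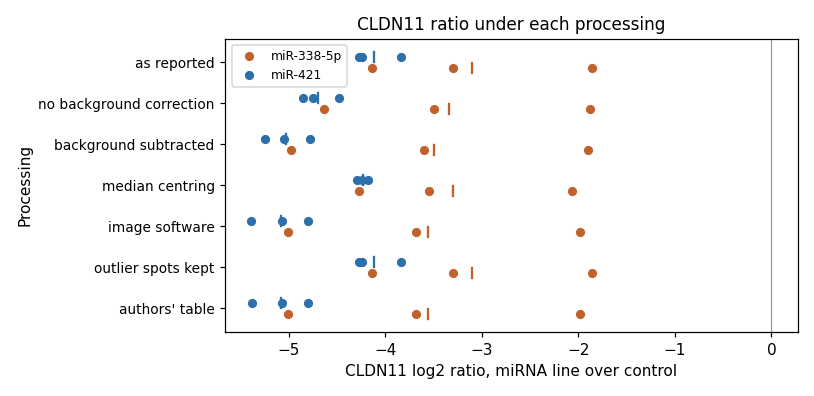
CLDN11 log2 ratio of miRNA line over control (horizontal axis) under each processing of the same 6 scans; each point is an array and each bar a group mean. The miR-421 arrays lie near -4 as reported and near -5 with background subtracted or the image software's ratio, while miR-338-5p replicate 1 stays near -2 throughout.

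Of the 10 genes, 7 had a probe that passed the filter on dim signal. Among them, limma's test at an adjusted p of 0.05 called 1 lower and 0 higher in each line, CLDN11 both times. Over all genes with 1 probe each, 5.41% were called lower and 4.23% higher in the miR-338-5p line, 9.64% in all. The miR-421 line had 13.5% lower and 10.2% higher, 23.7% in all. A mean log2 ratio at or below -1 was met by CLDN11 alone of the 7, against 1.02% and 2.43% of all genes. Nothing is read from these counts, because the same ratios chose the genes. The median log2 ratio of the 7 was -0.17 in the miR-338-5p line and 0.00 in the miR-421 line, beside 0.00 over all genes in both lines. Both medians are the values of CLDN1, a probe near background whose ratio moves with the processing. Leaving out CLDN11, the 6 means ran from -0.51 to 0.47 and from -0.59 to 0.58. In the direct difference of both lines, 0 of the 7 were called (limma), beside 0.0315% of all genes (0.0158% higher and 0.0158% lower).

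**Figure D3:**
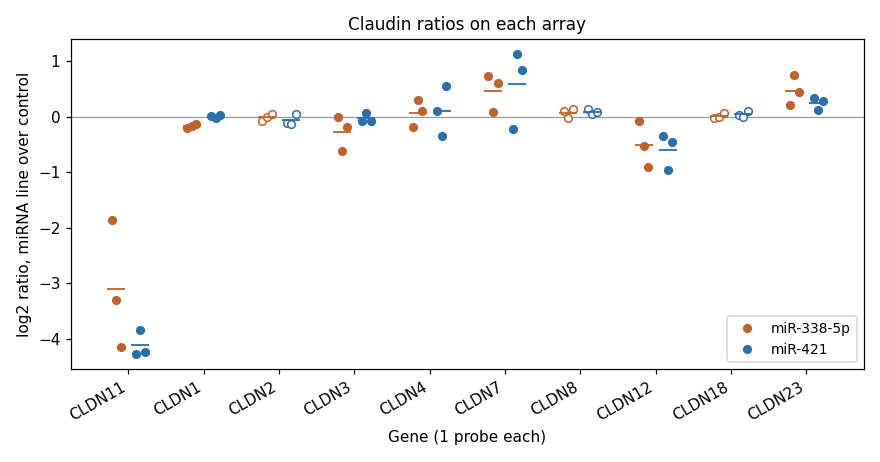
Log2 ratio of miRNA line over control for 1 probe of each of the 10 claudins, with a point for each array, a bar for each group mean (n = 3), and open points for the 3 genes that did not pass the filter on dim signal. CLDN11 lies between -4.27 and -1.86 on all arrays, while every point of the other 9 lies between -0.96 and 1.13.

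Of the claudins typical of simple epithelia, CLDN3, CLDN4 and CLDN7 were well above background in both dyes on all 6 arrays. CLDN3 (NM_001306; chromosome 7, 73183327 to 73183386, minus strand, hg19), a barrier-forming claudin that is also the receptor of a bacterial enterotoxin, had log2 ratios of -0.01, -0.63 and -0.19 in the miR-338-5p line and of -0.08, 0.07 and -0.08 in the miR-421 line. Its means were -0.28 ± 0.32 and -0.03 ± 0.09 (SD, n = 3 each), so neither lay clearly away from 0 against the spread. With median centring in place of loess the miR-421 mean was 0.12, which turns its sign.

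CLDN4, which binds the same enterotoxin, was read by 2 probes that differ. The probe at the transcript NM_001305 (chromosome 7, 73246907 to 73246966, plus strand, hg19) gave log2 ratios of -0.19, 0.30 and 0.09 in the miR-338-5p line and of 0.09, -0.35 and 0.54 in the miR-421 line. Both groups straddle 0, with means of 0.07 ± 0.25 and 0.09 ± 0.45 (SD, n = 3 each). The other probe lies upstream, at chromosome 7, 73244259 to 73244318, and was above background on 0 arrays in either dye.

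CLDN7, a claudin found along the sides of epithelial cells, was above control on 5 of the 6 arrays. Its 60-base probe (NM_001307; minus strand, hg19) spans 165 bases of chromosome 17, from 7163822 to 7163986, so it crosses a splice junction, which is why it is shown, in the messenger's direction.
CLDN7 probe: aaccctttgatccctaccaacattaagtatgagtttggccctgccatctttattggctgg
The log2 ratios of CLDN7 were 0.73, 0.07 and 0.60 in the miR-338-5p line, a mean of 0.47 ± 0.35 (SD, n = 3). Under miR-421 they were -0.22 (Pool), 1.13 (replicate 1) and 0.83 (replicate 2), a mean of 0.58 ± 0.71 (SD, n = 3). The miR-421 Pool was below control and the 2 numbered replicates above it, so the SD exceeds the mean. Without the Pool the mean was 0.98, and without replicate 1 it was 0.30.

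CLDN12, a claudin that lacks the PDZ-binding end by which most of the family attach to scaffolds, was below control on all 6 arrays. Its brighter probe (NM_012129; chromosome 7, 90044941 to 90045000, plus strand, hg19) had log2 ratios of -0.09, -0.54 and -0.91 in the miR-338-5p line and of -0.36, -0.96 and -0.47 in the miR-421 line. The means were -0.51 ± 0.41 and -0.59 ± 0.32 (SD, n = 3 each), and the groups overlap. Without miR-338-5p replicate 3 the miR-338-5p mean was -0.31. The control level of this probe was 8.93 to 9.10 in log2 Cy3 over the arrays. A second CLDN12 probe, from the same transcript and also on the plus strand, at 90042478 to 90042537, was above background on 0 arrays in either dye. It is shown because a gene read as present by one probe was not detected by the other.
CLDN12 probe not above background: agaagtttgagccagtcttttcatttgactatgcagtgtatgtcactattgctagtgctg

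CLDN23 (NM_194284; chromosome 8, 8561413 to 8561472, plus strand, hg19), a less studied epithelial claudin, was above control on all 6 arrays. Its log2 ratios were 0.21, 0.75 and 0.44 in the miR-338-5p line and 0.33, 0.11 and 0.28 in the miR-421 line. The means were 0.46 ± 0.27 and 0.24 ± 0.12 (SD, n = 3 each), and the groups overlap. With the image software's ratio both means were larger, 0.74 and 0.50. Without miR-338-5p replicate 2 the miR-338-5p mean was 0.32.

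CLDN1, a claudin needed for the barrier of the skin, was dim and was read only in part. Its probe (NM_021101; chromosome 3, 190024001 to 190024060, minus strand, hg19) was above background in control RNA on the 3 miR-338-5p arrays and on 0 miR-421 arrays. In the miRNA line it was above background on 0 miR-338-5p arrays and on 2 miR-421 arrays, the Pool and replicate 2. On the miR-338-5p arrays the mean control level was 1.09-fold above a floor set for the miR-338-5p line. The floor is, per array, the higher of the dimmest Cy5 signal well above background of any probe and the probe's own. It is not a strict bound, because the limit of detection differs between spots. The control signal itself lay at that limit. Its log2 Cy3 level of 5.95 on miR-338-5p replicate 3 counted as above background. Levels of 5.99 and 6.02 on the miR-421 Pool and replicate 2 did not. The measured log2 ratios were -0.21, -0.16 and -0.14 on the miR-338-5p arrays and 0.00, -0.03 and 0.02 on the miR-421 arrays. Over all gene spots, the share above background in Cy3 was also higher on the miR-338-5p arrays (47.3% to 47.9%) than on the miR-421 arrays (44.3% to 44.4%), and its part in the CLDN1 values was not tested. The miR-338-5p mean of -0.17 became -1.86 when background was subtracted and -2.46 when the ratio of the image software was taken, so its size is not settled by these arrays.

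CLDN2, a pore-forming claudin of leaky epithelia, CLDN8, a claudin of the distal nephron, and CLDN18, a claudin of stomach and lung, did not pass the filter. CLDN2 (chromosome X, 106174032 to 106174091, plus strand) and CLDN8 (chromosome 21, 31586966 to 31587025, minus strand) were each above background on 1 array in Cy3 and on 1 in Cy5. CLDN18 (chromosome 3, 137752337 to 137752396, plus strand) was above background on 0 arrays in either dye. Their log2 ratios, between -0.13 and 0.14, are those of signals at background, and no change of these genes was detectable here.

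The claudins outside the 10 were mostly dark. Of 14 further claudins listed, 13 were on the arrays, with 17 probes, of which 11 were at background in both dyes throughout. The 5 genes tested were CLDN6, CLDN9, CLDN15, CLDN19 and CLDN24, with mean log2 ratios of -0.15 to 0.12 in the miR-338-5p line and of -0.16 to 0.38 in the miR-421 line. None was called in limma's fit (0 of 5 in each line and in the difference), beside 9.64%, 23.7% and 0.0315% of all genes, so with 5 genes a count of 0 is near the background.

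The genes whose 6 ratios were nearest to those of CLDN11 were found by the root mean square difference over the 6 arrays. The nearest was AKR1C3, an aldo-keto reductase that converts steroids, at 0.44 log2 units. Its log2 ratios were -2.07, -3.02 and -4.55 in the miR-338-5p line and -4.10, -3.96 and -3.33 in the miR-421 line (Pool, 1, 2). AKR1C3 was thus least reduced on miR-338-5p replicate 1, as CLDN11 was, though close relatives of AKR1C3 may share its probe's signal. DDC, the decarboxylase that makes dopamine and serotonin, followed at 0.76, with -2.45, -1.66 and -4.52 in the miR-338-5p line and -4.49, -3.80 and -3.72 in the miR-421 line. ASS1, the argininosuccinate synthase of arginine synthesis, was nearest at 0.91 by one probe and at 1.13 by another, and PCP4L1, a relative of the calmodulin-binding protein PCP4, at 1.03. ASS1 and PCP4L1 differed little between the miR-338-5p arrays, where CLDN11 differed most. PCP4L1 had -3.33, -3.45 and -3.56 there.

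**Figure D4:**
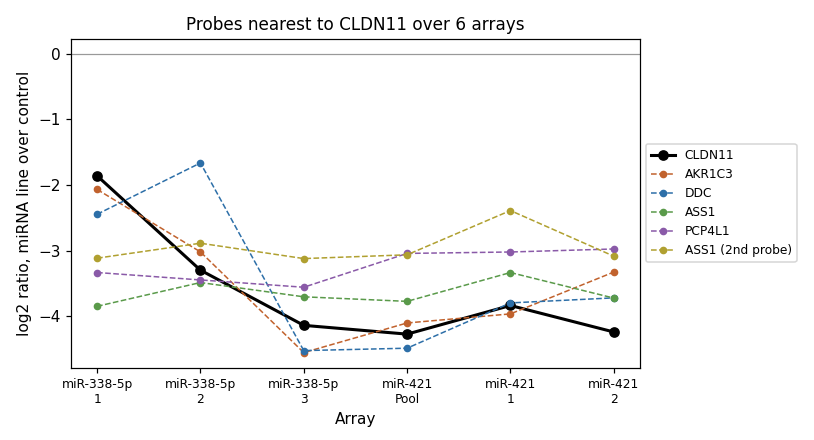
Log2 ratio of miRNA line over control on each of the 6 arrays for CLDN11 (black) and the 5 probes nearest to it by root mean square difference; lines only join the points of a probe. CLDN11, AKR1C3 and DDC lie deepest on miR-338-5p replicate 3 or the miR-421 arrays and highest on miR-338-5p replicates 1 and 2, while ASS1 and PCP4L1 stay between -3.85 and -2.39 on all arrays.

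Around the CLDN11 probe, 22 other probes lie within 500000 bases, a window chosen after the claudin values had been seen. Of these, 8 passed the filter. Their mean log2 ratios ran from -0.64 to 0.43 in the miR-338-5p line and from -1.11 to 0.07 in the miR-421 line, none as low as CLDN11. In limma's test 1 was called in the miR-338-5p line and 3 in the miR-421 line, all lower, beside 5.41% and 13.5% of all genes called lower. SLC7A14, a transporter-family gene, was called in both by 1 probe, at -0.41 and -0.44, with Cy5 above background on 2 of 3 arrays in each. Its other probes did not pass the filter and were above background on 0 arrays in either dye. PHC3, a polycomb group gene, was called at -1.11 in the miR-421 line and had -0.64 in the other, and EIF5A2, a translation factor, was the other call there. No value is given for EIF5A2, since its Cy5 signal was above background on 0 of the 3 miR-421 arrays. These 3 genes were named after their values were seen.

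The partners of claudins at the junction were read from a list of 36 tight junction genes, all on the arrays, of which 34 were tested. In the miR-338-5p line 2 of the 34 (5.88%) fell and 0 rose, beside 9.64% of all genes. Under miR-421, 4 rose and 2 fell (17.6%), beside 23.7% of all genes. The median log2 ratio of the list was 0.03 and 0.06, beside 0.00 over all genes in both lines. In the difference of the lines 0 passed limma's test, beside 0.0315% of all genes. In that fit 4 had an unadjusted p under 0.05. The share of all genes at that level was not computed, so nothing is read from the 4.

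MPDZ, a scaffold with many PDZ domains that binds claudin tails, was lower on all 6 arrays. Its log2 ratios were -0.44, -0.79 and -0.91 in the miR-338-5p line and -0.29, -0.76 and -0.46 in the miR-421 line (Pool, 1, 2). It fell by 0.71 ± 0.24 (SD, n = 3; limma adjusted p 0.0261) and by 0.51 ± 0.24 (SD, n = 3; 0.0353). The second MPDZ probe also passed in both lines, at -0.33 (limma adjusted p 0.0232) and -0.29 (0.0183). CGN (cingulin), which links the junction to the cytoskeleton, had log2 ratios of -0.60, -0.40 and -0.84 in the miR-338-5p line, where it fell by 0.62 ± 0.22 (SD, n = 3; limma adjusted p 0.0219). Its miR-421 mean was -0.21 and did not pass.

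The polarity genes PARD3 and PRKCZ rose in the miR-421 line, by 0.69 ± 0.33 and 0.42 ± 0.23 (SD, n = 3; limma adjusted p 0.0231 and 0.0323). SYMPK, a polyadenylation factor also found at junctions, rose by 0.54 ± 0.32 (0.0363), and TJP3, the third of the zonula occludens scaffolds, by 0.43 ± 0.15 (0.0374). PATJ, a scaffold like MPDZ, fell by 0.49 ± 0.19 (0.0231). Other probes of PARD3, PRKCZ and PATJ did not pass, with miR-421 means of 0.12, 0.16 and -0.01. The zonula occludens scaffold TJP1 did not pass in either line, with means of 0.26 and 0.11, nor did occludin (OCLN, 0.47 and -0.11) or the adhesion molecule F11R (0.10 and 0.03). The log2 ratios of TJP1 were 0.27, 0.25 and 0.26 in the miR-338-5p line. In the miR-421 line they were 0.54 (Pool), -0.72 (replicate 1) and 0.50 (replicate 2), so replicate 1 lay apart. TJP1 passed in 1 of 17 alternative analyses in each line (limma adjusted p 0.0305 and 0.0156).

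**Figure D5:**
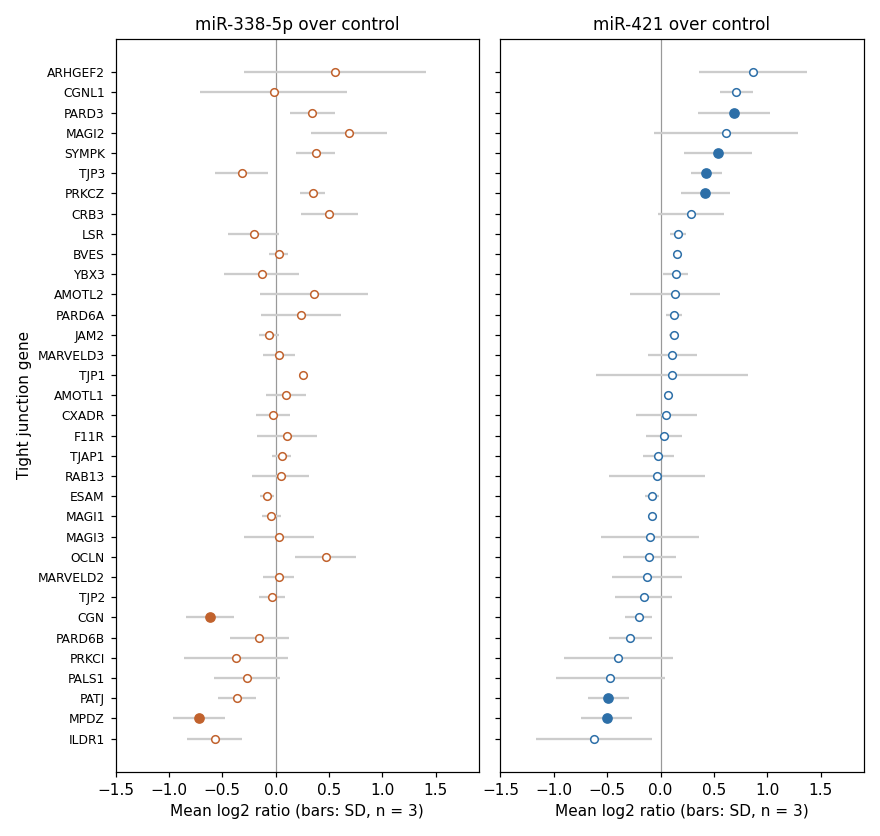
Mean log2 ratio of miRNA line over control for the 34 tested tight junction genes, ordered by their miR-421 mean, with SD bars (n = 3) and filled points for genes past limma's adjusted p of 0.05. Filled points are CGN and MPDZ in the miR-338-5p panel and PARD3, SYMPK, TJP3, PRKCZ, PATJ and MPDZ in the miR-421 panel.

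These counts rest on single arrays. In the miR-338-5p line leaving out miR-338-5p replicate 1 or 3, or miR-421 replicate 2, took the count from 2 to 0. Leaving out miR-338-5p replicate 2 took it to 1, and miR-421 replicate 1 to 5. The miR-421 count of 6 became 1 without the Pool and 0 without replicate 2.

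Regulators of epithelial genes, claudins among them, were read from a list of 16, all on the arrays, of which 13 were tested. In the miR-338-5p line 3 rose and 1 fell (30.8%, beside 9.64% of all genes), and in the miR-421 line 4 rose and 2 fell (46.2%, beside 23.7%). The list is short, and nothing particular to it is read from these shares. The median log2 ratio was 0.12 and 0.03, beside 0.00 over all genes. In the difference of the lines 0 passed limma's test, beside 0.0315% of all genes. In that fit 5 had an unadjusted p under 0.05. The share of all genes at that level was not computed, so nothing is read from the 5.

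GRHL2, a grainyhead factor that drives claudin and cadherin genes, had log2 ratios of 0.70, 1.05 and 1.01 in the miR-338-5p line, where it rose by 0.92 ± 0.19 (SD, n = 3; limma adjusted p 0.0276). The miR-421 ratios were 0.17, -0.66 and -0.24 (Pool, 1, 2), with a mean of -0.24. All miR-338-5p arrays lay above all miR-421 arrays, yet the difference of 1.16 did not pass (limma adjusted p 0.14). A second GRHL2 probe did not pass in either line, at 0.10 and -0.08. Its relative GRHL1 rose by 0.64 ± 0.29 in the miR-338-5p line (SD, n = 3; limma adjusted p 0.033), with a second probe at -0.08 that did not pass. SNAI1, a repressor of claudin and cadherin genes, fell by 0.34 ± 0.15 there (SD, n = 3; limma adjusted p 0.0429).

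ESRP1, an epithelial splicing factor, rose in both lines, with log2 ratios of 0.59, 0.38 and 0.67 in the miR-338-5p line and 0.80, 0.44 and 0.94 in the miR-421 line (Pool, 1, 2). The means were 0.55 ± 0.15 (SD, n = 3; limma adjusted p 0.038) and 0.73 ± 0.26 (SD, n = 3; 0.0111). ELF3, an epithelial ETS factor, rose by 0.82 ± 0.45 in the miR-421 line (SD, n = 3; limma adjusted p 0.0301). EPCAM, an adhesion molecule that binds CLDN7, had miR-421 log2 ratios of -0.76, -0.86 and -1.08 and fell by 0.90 ± 0.17 (SD, n = 3; limma adjusted p 0.0146). In the miR-338-5p line EPCAM had a mean of -0.64 and did not pass. OVOL1, a zinc finger repressor of mesenchymal genes, had log2 ratios of 0.69, 0.76 and -0.54 in the miR-338-5p line. Their mean of 0.30 did not pass. In the miR-421 line OVOL1 fell by 1.12 ± 0.31 (SD, n = 3; limma adjusted p 0.0353). The remaining 2 that rose there, OVOL2 and ST14, were outside the rule for named genes and are named for completeness, at 0.47 and 0.58.

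The miR-338-5p regulator count of 4 became 0 without miR-338-5p replicate 1 or 2 or miR-421 replicate 2, and 1 without miR-338-5p replicate 3 or the miR-421 Pool. The miR-421 count of 6 became 3 without replicate 1 and 0 without replicate 2, and with median centring it was 3, of which 1 rose and 2 fell.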

How the data were processed

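Total RNA profiles on 6 arrays of 22RV1 lines were read from 2-colour Agilent scans. Per the file headers, the authors read them with Feature Extraction 11.5.1.1. The deposited intensity values are each spot's mean and its local background median in both dyes, with no normalization. The deposited log10 values, per the file headers, are red over green after background subtraction and dye normalization. The deposited whole-series table holds log2 ratios whose normalization is not given in the sources used here. Both were alternatives only. Probe coordinates are on hg19, per the file headers, and no exon or UTR annotation was used. Per the labels' protocols, RNA was given a poly(A) tail before oligo-dT priming.

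With R 4.3.3 and limma 3.58.1 (statmod 1.5.0 for the block), background was corrected by normexp (offset 50), arrays were normalized by loess with control spots at weight 0, outlier spots were left out and spots of a probe averaged. Levels are log2 signals of each dye after Aquantile scaling, and no probe's level is set against another's. A probe was tested if 3 or more of the 6 arrays had it well above background in Cy3 or in Cy5, as 27503 of 58201 were. All 6 arrays were fitted together in limma, each group with its own mean. Each mean was tested against 0, two-sided, with Benjamini-Hochberg adjustment over all tested probes at 0.05, also for the difference of the means. If 1 control culture supplied every array, a test against 0 leaves out its own spread. A gene is represented by its probe of highest mean log2 intensity. The fit was tested on simulated data, where it missed part of the shifted probes and made false calls, for miR-338-5p at a share above the nominal one, so adjusted p-values of that line may be too small. The pass mark for recovery was lowered after the first simulated result was seen, with the fit unchanged. Precision is limited by how few arrays there are.

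The claudins and both lists were chosen with earlier results of these data known. TJP1, OCLN and F11R are always named. Others are named, per line, where they passed with 1 sign on all 3 arrays: the 4 largest rises and falls of the tight junction list, and the 2 largest of the regulators. Alternatives covered background, normalization, ratio source, filter, outlier spots, variance model, probes per gene, arrays in the fit, each array left out and the replicate block. A marker gene is not reported here.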

Additional observations from a re-analysis of the deposited data

Results flagged for a closer look

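TJP3, a zonula occludens scaffold, had log2 ratios below 0 on the 3 miR-338-5p arrays (-0.13, -0.22 and -0.60) and above 0 on the 3 miR-421 arrays (0.31, 0.39 and 0.59). It was singled out because every array of one line lay on the other side of control from every array of the other. The difference of the means, miR-338-5p minus miR-421, was -0.75 on the log2 scale and missed the threshold (limma adjusted p 0.145, and 0.122 to 0.429 over the alternatives).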

How the results depend on the processing

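CLDN11 in the miR-338-5p line kept its size within its SD in 9 of 9 alternatives (-3.72 to -2.58). In the miR-421 line its mean log2 ratio ranged from -5.09 to -4.04, and moved beyond its SD with no background correction (-4.69), background subtracted (-5.03), the image software's ratio (-5.09) and the authors' deposited table (-5.09). The cause was not tested. Tight junction calls in the miR-338-5p line (2 as reported) were 0 with background subtracted, the image software's ratio, the authors' deposited table, trended and robust variance, or the group's own arrays, and 0 to 5 with single arrays left out. In the miR-421 line (6 as reported) median centring left 0, the image software's ratio or the group's own arrays 3 and no filter 2, and 0 to 5 with single arrays left out. Regulator calls in the miR-338-5p line (4 as reported) were 0 with median centring, no filter, trended and robust variance or the group's own arrays and 2 with the image software's ratio, and 0 to 4 with single arrays left out. In the miR-421 line (6 as reported) they were 3 with median centring or no filter, and 0 to 6 with single arrays left out. The difference of the lines had 0 calls in both lists under all 16 alternatives. No mean past the threshold changed sign. Some means near 0 that did not pass or were not tested did, in 1 or more alternatives, among them CLDN3 in the miR-421 line, CLDN4 in both lines, and TJP1, OCLN and F11R in the miR-421 line. Median centring shifted all probes by -0.07 and -0.02 (medians on the log2 scale).

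With the replicate number as a random block (replicate block), the lists kept their counts, 2 and 6 tight junction genes and 4 and 6 regulators. Over all probes the calls were 2663, 6013 and 0 for miR-338-5p, miR-421 and their difference, against 2476, 5950 and 13 without the block. No block held 2 arrays of the same line, so the block could alter a line's test against 0 only a little. The fitted block correlation was negative (-0.297), which a random block cannot represent. Nothing is therefore read from the kept counts. The labels do not say that numbers pair samples, and the deviations of the 2 shared numbers correlated at -0.14 and -0.211.

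CLDN1, CLDN2, CLDN8 and CLDN18 lie at or near background, where ratios depend on the background correction. CLDN8 in the miR-338-5p line, for example, ranged from 0.04 to 1.51. The 3 arrays of a group limit every value.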
